A study of Mus musculus with 2 samples.

Results

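The ciliary transition zone genes described here are 9 mouse genes, Mks1, Tmem67, Tctn1, Tctn2, Cc2d2a, B9d1, B9d2, Rpgrip1l and Ahi1. They were chosen by name and not by their measured values, although earlier results of these data were known. All 9 were found by symbol among the 32287 genes of the deposited count table. Expression was measured by droplet single-cell RNA sequencing (10x Genomics 3′ v3 kit) in 2 primary cultures of the lateral ventricular wall of newborn mice (P0-P2), with no genetic change or drug in either. The substrain was C57BL/6N in replicate 1 and C57BL/6J in replicate 2, so substrain and library cannot be told apart. Cells were grown to confluence, other cell types were shaken off overnight, and cells were taken after 2 days in serum-free medium, when progenitors and cells at all stages of ependymal differentiation share a flask. The multiciliated lineage is taken here as 5 populations, the early, mid and late deuterosomal stages followed by early and full multiciliated cells (MCCs). It was set against non-cycling progenitors (progenitors I and II), against cycling progenitors, and against the other cell types left in the flask, which are neuroblasts, oligodendrocyte precursors (OPCs), oligodendrocytes and microglia.

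The transition zone is the stretch at the base of a cilium where Y-shaped links join the microtubule doublets to the membrane, and it acts as a gate for proteins that enter or leave the cilium. The 9 proteins belong to the module named after Meckel syndrome (MKS) or bind to it. Mks1, B9d1 and B9d2 share a B9 domain and form a complex; Tmem67 is a transmembrane protein with a Frizzled-like extracellular part; Tctn1 and Tctn2 are tectonic proteins; Cc2d2a is a C2 domain protein. Rpgrip1l is the scaffold that recruits other transition zone proteins, and Ahi1, also called jouberin, is a WD40 repeat protein. In humans, loss of these genes causes Meckel, Joubert and related ciliopathies. Progenitors of the ventricular wall carry a single primary cilium, and ependymal cells build many motile cilia after making many centrioles in the deuterosomal stages.

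Replicate 1 held 12028 cells with 173510950 UMIs (unique molecular identifiers, 1 per captured transcript) and replicate 2 held 4373 cells with 70611931 UMIs. The libraries shared 13 cell barcodes. Summed over 5 genes, multiciliated cell markers had 4643 and 4636 CPM (UMIs per 1000000 summed UMIs) in MCCs and 6004 and 5614 CPM in mid deuterosomal cells, against 398 and 378 CPM in progenitors I, so they did not set MCCs apart from the deuterosomal stages. Deuterosomal markers were highest in mid deuterosomal cells, at 1860.4 and 2011 CPM over 5 genes. In OPCs of replicate 2 the sum of 4 cycling markers, 2969.7 CPM, was above that of 5 OPC markers, 2546 CPM. Microglia of replicate 1 also carried multiciliated cell markers, at 947 CPM against 144 CPM in replicate 2, and so did OPCs, at 513 CPM in replicate 1 against 61.1 CPM in replicate 2. The population names are the authors' and were presumably set from the same expression values, so the members' own counts may have had a small part in them. Whether the 2 cultures came from separate litters or days is not in the labels. The p-values set each difference against 1 spread per gene between these 2 libraries. That spread was estimated over all 13 fitted populations together, with information shared between genes, and not for the named populations alone. A shift shared by a whole library is removed by the library term.

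Promoter sequences show a feature that the choice of genes did not use. RFX factors, which switch on ciliary genes in worms and vertebrates, bind a motif called the X-box. RefSeq start sites (GRCm38.p6, windows of 250 bases before to 50 after the start) were given for 8 of the 9 members, and Tmem67 is named only. The X-box searched was GTNNCC, then 3 bases of any kind, then GNAAC, on both strands. It was found in 5 of these 8 members, Mks1, Tctn1, Tctn2, B9d2 and Ahi1, and in 2.17% of 32851 promoters of the same length. B9d2 and Ahi1 have a second start site with no match, so 5 of the members' 10 windows held it. The shorter RFX letters GTTGCC, which can lie inside an X-box, were found in 6 of 8 members, the same 5 and B9d1, and in 12.5% of promoters. The forkhead letters GTAAACA were in 0 of 8 members and 3.65% of promoters, and the E2F letters TTTNNCGC were in Ahi1 alone, against 5.17% of promoters. The 2 stretches that follow are the 120 bases before the start of Mks1 (chr11:87853095-87853214, plus strand) and of Tctn2 (chr5:124598629-124598748, plus strand), shown because their match lies upstream of the start, at bases −24 to −11 and −62 to −49. The 3 short ones lie just after the start, in Tctn1 (chr5:122264411-122264432, minus strand, bases 37 to 50), B9d2 (chr7:25680788-25680817, plus strand, bases 17 to 30) and Ahi1 (chr10:20952560-20952589, plus strand, bases 22 to 35). Capitals mark the X-box match, which in Tctn2 is read on the strand opposite to the one printed.
Mks1: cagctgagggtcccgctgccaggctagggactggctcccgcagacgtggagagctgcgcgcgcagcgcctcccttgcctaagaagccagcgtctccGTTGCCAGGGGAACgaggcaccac
Tctn2: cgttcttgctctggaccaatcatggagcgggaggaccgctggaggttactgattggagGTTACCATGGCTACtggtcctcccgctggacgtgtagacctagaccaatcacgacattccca
Tctn1: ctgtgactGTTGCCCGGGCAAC
B9d2: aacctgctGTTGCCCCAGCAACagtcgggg
Ahi1: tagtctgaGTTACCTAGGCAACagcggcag
A match says only that these letters are present. The members without an X-box match were Cc2d2a, B9d1 and Rpgrip1l.

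All 9 members were measured well above the counting floor over each whole library, and they differed widely in abundance. The 3′ kit counts 1 end per transcript, so levels do not scale with gene length, although capture can differ between genes. B9d1 was the most abundant, at 271 CPM in replicate 1 and 250.3 CPM in replicate 2, and Tctn1 the least, at 10.5 and 13.3 CPM. The ratio of replicate 1 to replicate 2 was 1.35 for Mks1, 0.790 for Tctn1 and 0.870 for Tctn2, and lay between 0.936 and 1.13 for the other 6. In the annotation (GENCODE M21, mm10), Mks1 lies at chr11:87853215-87863803, Tmem67 at chr4:12039355-12090020, Tctn1 at chr5:122237848-122264460, Tctn2 at chr5:124598749-124627738 and Cc2d2a at chr5:43662346-43740972. B9d1 lies at chr11:61505144-61512931, B9d2 at chr7:25680780-25686558, Rpgrip1l at chr8:91217030-91313262 and Ahi1 at chr10:20952547-21080429. Tmem67 overlaps Rbm12b2 on the other strand (1441 UMIs in replicate 1 and 664 in replicate 2, against 9434 and 4103 for Tmem67), and Tctn1 overlaps Hvcn1 (105 and 34 UMIs, against 1826 and 941 for Tctn1). The sources used here do not say whether counting used strand, so reads of these pairs may be shared.

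Against non-cycling progenitors, all 9 transition zone genes were higher in the multiciliated lineage. The change was largest for Tmem67, at 2.98-fold, and smallest for Ahi1, at 1.20-fold, with a median log2 fold change of 1.15 against 0.01 over all genes tested. The test called 36% of the 15877 genes tested higher and 34.9% lower, so a call in itself is common in this contrast. With the 5 stages and the 2 progenitor populations weighted equally within each library, Tmem67 averaged 77.5 and 101 CPM in the lineage of replicates 1 and 2, against 25.7 and 33.9 CPM in non-cycling progenitors. Rpgrip1l averaged 106 and 135 CPM in the lineage, against 43.6 and 48.1 CPM in the progenitors. Tctn2 averaged 102 and 147 CPM in the lineage, against 43.4 and 59.6 CPM in the progenitors. For each of these genes both libraries moved the same way, and replicate 2 was higher on both sides.

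The B9 domain genes changed by almost the same factor although their levels differed more than 10 times. B9d1 averaged 377 and 401 CPM in the lineage and 168 and 172 CPM in non-cycling progenitors. B9d2 averaged 80.1 and 77.8 CPM in the lineage and 35.5 and 33.7 CPM in the progenitors. Mks1 averaged 31.9 and 29.5 CPM in the lineage and 15.0 and 11.5 CPM in the progenitors. By edgeR's quasi-likelihood test the log2 fold changes were 1.15 ± 0.19 for B9d1 (SE, adjusted p = 0.000118), 1.15 ± 0.07 for B9d2 (adjusted p = 9.21e-14) and 1.16 ± 0.08 for Mks1 (adjusted p = 2.03e-12). B9d1 had the largest error of the 9 genes.

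The other members apart from Ahi1 spanned a wider range. In the same test the log2 fold change was 1.57 ± 0.10 for Tmem67 (adjusted p = 1.01e-12), 1.37 ± 0.08 for Rpgrip1l (adjusted p = 7.61e-14) and 1.21 ± 0.12 for Tctn2 (adjusted p = 1.33e-07). It was 0.91 ± 0.09 for Cc2d2a (adjusted p = 2.52e-09) and 0.62 ± 0.09 for Tctn1 (adjusted p = 6.44e-07). Cc2d2a averaged 101 and 109 CPM in the lineage and 55.4 and 52.5 CPM in non-cycling progenitors, and Tctn1 averaged 12.3 and 16.6 CPM in the lineage and 7.32 and 12.0 CPM in the progenitors. Taking each population of each library by itself, the lineage lay wholly above the non-cycling progenitors for 6 members, against 10.5% of all genes tested, and the groups overlapped for Tctn1, Tctn2 and Ahi1.

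**Figure D1:**
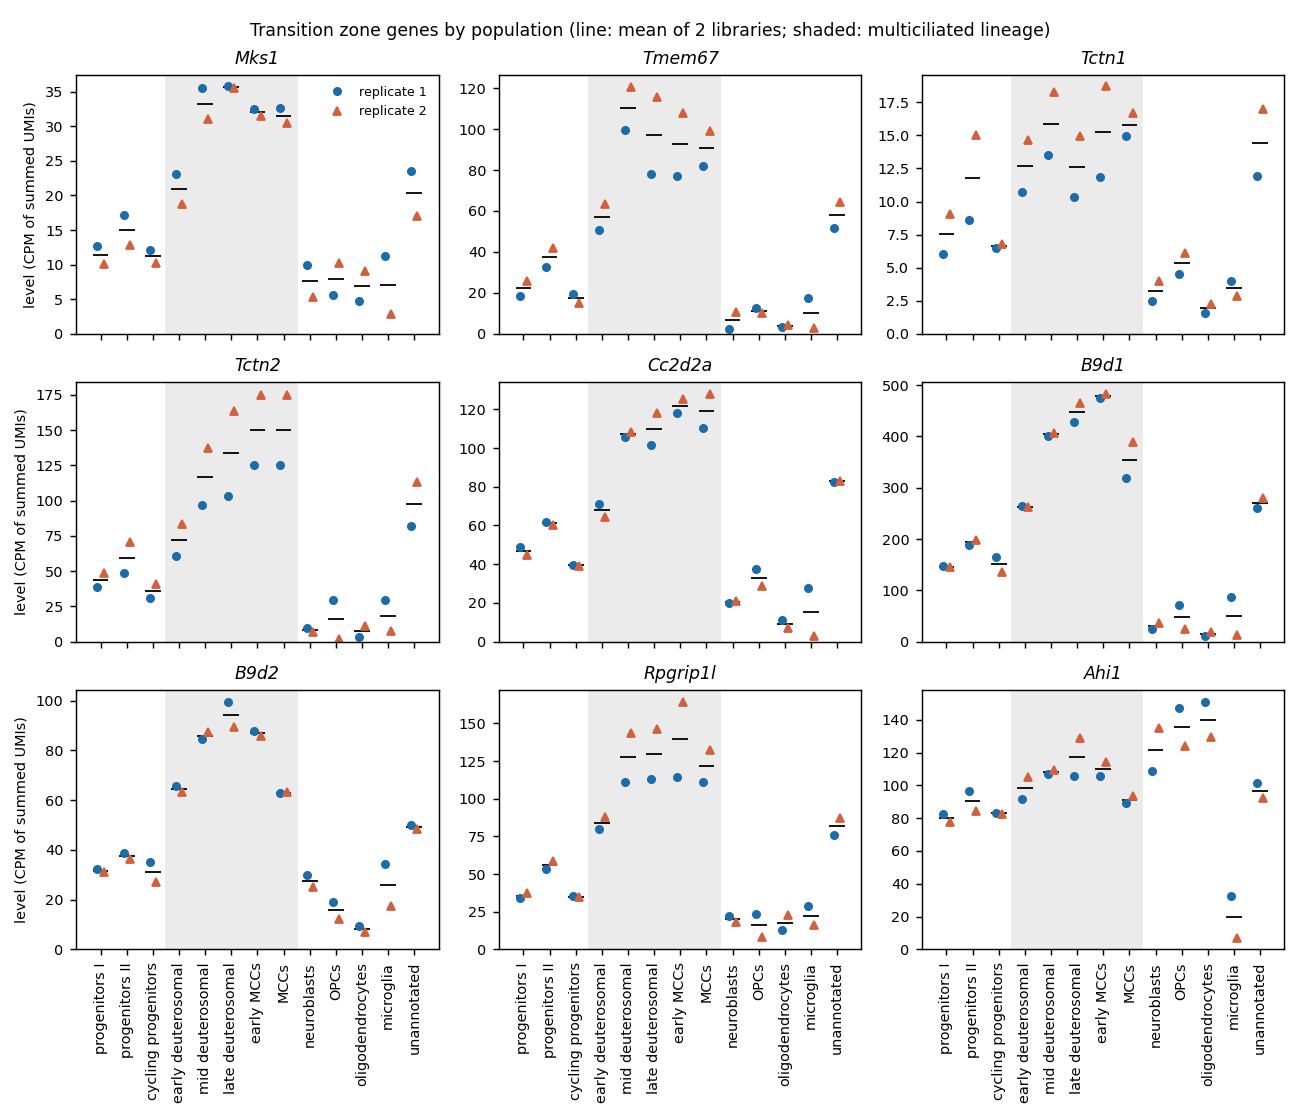
Level of each of the 9 transition zone genes in 13 populations, in CPM of summed UMIs on a linear axis from 0. Circles are replicate 1, triangles replicate 2, and lines the mean of both; the shaded stages form the multiciliated lineage. By these raw totals, 8 of the 9 genes sit highest in the shaded stages, and Ahi1 sits highest in neuroblasts, OPCs and oligodendrocytes and lowest in microglia. With the scaling used in the fit, Ahi1 in neuroblasts lay below late deuterosomal cells.

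Ahi1 stood apart within the 9. It averaged 99.7 and 110.2 CPM in the lineage of replicates 1 and 2, against 89.5 and 81.0 CPM in non-cycling progenitors. The log2 fold change was 0.26 ± 0.08 (edgeR's quasi-likelihood test, adjusted p = 0.00836), and without the library term in the model it no longer passed (adjusted p = 0.149, the highest of 7 alternatives, the lowest being 0.000807). Its highest mean levels were outside the lineage, at 151 and 129 CPM in oligodendrocytes, 147 and 124 CPM in OPCs and 109 and 135 CPM in neuroblasts, and these 3 populations overlapped one another. OPCs and neuroblasts also overlapped the lineage, where late deuterosomal cells had 105 and 129 CPM. Microglia were lowest, at 32.4 and 7.22 CPM. In mouse neurons Ahi1 is known to bind the huntingtin-associated protein Hap1.

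Against cycling progenitors, all 9 members were again higher in the lineage, where the test called 30.6% of all genes higher. Cycling progenitors were at or below progenitors I in mean level for 7 members. The largest change was that of Tmem67, which averaged 77.5 and 101 CPM in the lineage and had 19.6 and 15.2 CPM in cycling progenitors, a log2 fold change of 2.27 ± 0.16 (adjusted p = 2.51e-11). Tctn2 changed by 1.77 ± 0.19 and Rpgrip1l by 1.76 ± 0.12 on the log2 scale. Ahi1 changed least, by 0.36 ± 0.12 (adjusted p = 0.0130), and its call was lost without the library term (adjusted p = 0.167) and without the unannotated cells (adjusted p = 0.0543); the lowest over 7 alternatives was 0.000763. For all 9 members every population of the lineage lay above both sums of cycling progenitors, as it did for 16.2% of all genes tested.

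Against the other cell types the differences were larger, and for 8 members the lineage lay wholly above all of those populations, against 11.4% of all genes tested. The test called 42.3% of all genes higher in the lineage here, and the median over all genes was 0.37. B9d1 averaged 377 and 401 CPM in the lineage, against 48.7 and 22.8 CPM over neuroblasts, OPCs, oligodendrocytes and microglia, an 11.5-fold difference (log2 3.53 ± 0.24, adjusted p = 1.67e-08). Tmem67 differed by 3.43 ± 0.20 and Tctn2 by 3.30 ± 0.24 on the log2 scale, and the other members apart from Ahi1 by between 2.10 and 2.63. B9d1 had 87.8 CPM in microglia of replicate 1 against 13.0 CPM in those of replicate 2, and 71.3 against 24.4 CPM in OPCs, the same populations in which replicate 1 carried multiciliated cell markers. The part of those markers in the result was not tested. In replicate 2 alone, where they were lower, the log2 difference for B9d1 was 4.32 against 3.44 in replicate 1. Tctn2 had the widest gap between the libraries, 4.68 against 3.01. In replicate 2, however, Tctn2 had only 1 to 5 UMIs in each of the other cell types. Ahi1 passed this test at 0.29 ± 0.10 (adjusted p = 0.0166), and lost the call under 4 of 7 alternatives, where adjusted p reached 0.348 and was 0.00785 at the lowest. With microglia left out, an alternative chosen after the levels were seen, Ahi1's log2 difference was −0.13 ± 0.12 (adjusted p = 0.346), while the other 8 members still passed, with 41.8% of all genes called higher.

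**Figure D2:**
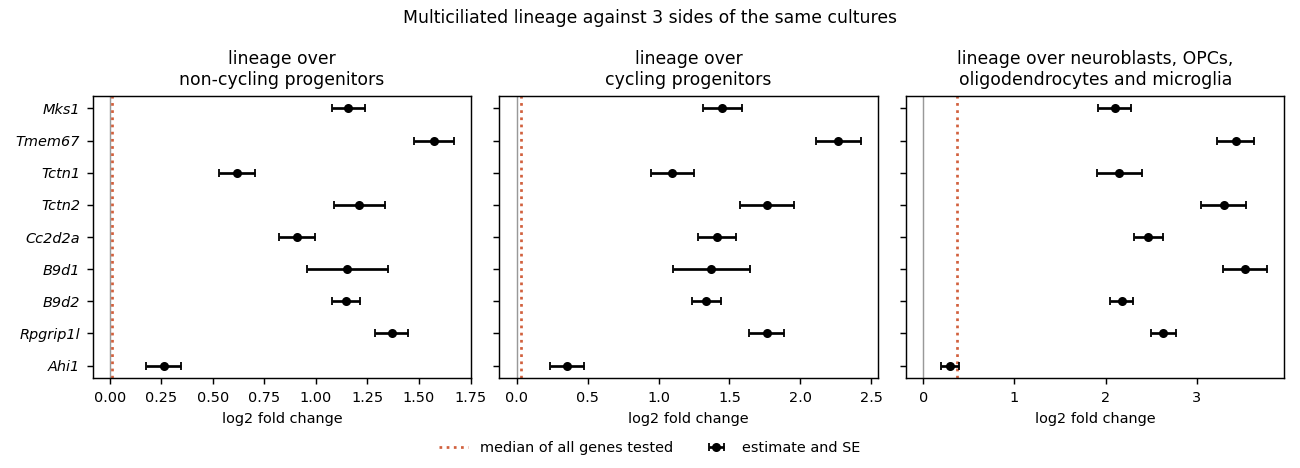
Log2 fold change of each transition zone gene in the multiciliated lineage over non-cycling progenitors (left), cycling progenitors (middle) and the other cell types (right); bars are SE and the dotted line is the median of all genes tested. Tmem67 is the furthest right of the 9 in the first and second comparison and B9d1 in the third, and Ahi1 is the furthest left in all 3.

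Part of the group was already higher at the first step into the lineage. In early deuterosomal cells against non-cycling progenitors, 5 of 9 members passed the test, all higher, with 21.8% of all genes called higher. These were Tmem67 (log2 0.93 ± 0.14), Rpgrip1l (0.85 ± 0.11), B9d2 (0.84 ± 0.10), Mks1 (0.61 ± 0.13) and Tctn1 (0.39 ± 0.14, adjusted p = 0.0229). For Tctn1 the call rests on the mean of both progenitor populations. In replicate 2 it had 14.6 CPM in early deuterosomal cells, against 15.0 CPM in progenitors II and 9.07 CPM in progenitors I. In replicate 1 its early deuterosomal level lay above both progenitor populations. B9d2 had 65.6 and 63.3 CPM in early deuterosomal cells, against 32.2 and 31.2 CPM in progenitors I and 38.8 and 36.3 CPM in progenitors II, with no overlap. Tctn2 (0.44 ± 0.18, adjusted p = 0.0556), Cc2d2a (0.29 ± 0.13, adjusted p = 0.0784), B9d1 (0.59 ± 0.27, adjusted p = 0.0961) and Ahi1 (0.14 ± 0.12, adjusted p = 0.378) did not pass. Over 7 alternatives the count of members called lay between 4 and 8, and the share of all genes called under each was not counted. Tctn1 lost its call with DESeq2 (adjusted p = 0.0646), with no filter on low counts (0.0681), without the library term (0.294) and in cells thinned to 5000 UMIs (0.472), and Mks1 lost it in thinned cells (0.0635). Tctn2 and B9d1 passed with RLE factors (another scaling of the libraries), and these and Cc2d2a in thinned cells and when the spread was estimated from these populations alone.

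At the second step, mid against early deuterosomal cells, most of the group was higher again. Here 7 of 9 members passed the test, all higher in mid deuterosomal cells, with 28.2% of all genes called higher. Tmem67 had 99.6 and 121 CPM in mid deuterosomal cells, against 50.5 and 63.2 CPM in early ones, a log2 fold change of 1.07 ± 0.15 (adjusted p = 3.93e-06). Cc2d2a had 106 and 108 CPM in mid deuterosomal cells, against 71.3 and 64.5 CPM in early ones (log2 0.76 ± 0.15, adjusted p = 0.000152). The 2 populations did not overlap for either gene. The others past the test were Tctn2 (0.80 ± 0.20), Mks1 (0.78 ± 0.13), Rpgrip1l (0.70 ± 0.13), B9d2 (0.52 ± 0.11) and Tctn1 (0.44 ± 0.15, adjusted p = 0.0179). B9d1 had 401 and 408 CPM in mid deuterosomal cells and 264 and 263 CPM in early ones, but with its large error in the model it missed the threshold (0.73 ± 0.31, adjusted p = 0.0705), as did Ahi1 (0.25 ± 0.14, adjusted p = 0.157). Both passed in thinned cells (adjusted p = 3.13e-07 for B9d1 and 0.0113 for Ahi1) and when the spread was estimated from these populations alone (1.34e-07 and 0.0490), and B9d1 also with RLE factors (0.0271). Tctn1 lost its call with DESeq2 (0.0627), without the library term (0.268), in thinned cells (0.0936) and without the unannotated cells (0.0765), and Tctn2 with DESeq2 (0.150) and without the library term (0.144).

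At the next 2 steps no member passed the test. In late against mid deuterosomal cells edgeR's quasi-likelihood test called 0 of 9 members, with 21.8% of all genes called either way; 1 member, Tctn1, had an unadjusted p below 0.05 (log2 −0.43 ± 0.16, adjusted p = 0.0649), and DESeq2 called 0. In early MCCs against late deuterosomal cells it again called 0 of 9, with 22.8% of all genes called either way; 0 had an unadjusted p below 0.05 and DESeq2 called 0. The log2 fold changes of the 9 lay between −0.43 and 0.08 in the first of these steps and between −0.15 and 0.24 in the second. A missed threshold does not show that levels were equal, and the SE of a single member reached 0.31.

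Between MCCs and early MCCs 1 member passed the test, B9d2, which was lower in MCCs, with 6.29% of all genes called lower. It had 62.8 and 63.2 CPM in MCCs, against 87.8 and 85.9 CPM in early MCCs, with no overlap, a log2 fold change of −0.48 ± 0.11 (adjusted p = 0.00599). Its adjusted p was 0.361 without the library term and 0.0701 with each cell thinned to 5000 UMIs, and lay between 1.24e-06 and 0.361 over 7 alternatives. B9d1 had 319.7 and 389 CPM in MCCs and 474 and 482 CPM in early MCCs, again with no overlap, but did not pass (−0.45 ± 0.31, adjusted p = 0.428); in thinned cells it passed (−0.45, adjusted p = 0.00474), and its adjusted p lay between 0.000125 and 0.829 over 7 alternatives. Its partner Mks1 differed by −0.03 ± 0.13. In MCCs against mid deuterosomal cells, a comparison chosen after the levels were seen, 3 members passed, all lower, with 29.9% of all genes called lower: B9d2 (−0.55 ± 0.11), Tmem67 (−0.38 ± 0.14, adjusted p = 0.0268) and Ahi1 (−0.35 ± 0.14, adjusted p = 0.0383). DESeq2 called B9d2 alone. Tctn2 did not pass here but was higher in MCCs with RLE factors (log2 0.443, adjusted p = 0.0336), in thinned cells (0.400, adjusted p = 0.00027) and when the spread was estimated from these populations alone (0.276, adjusted p = 0.000957).

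**Figure D3:**
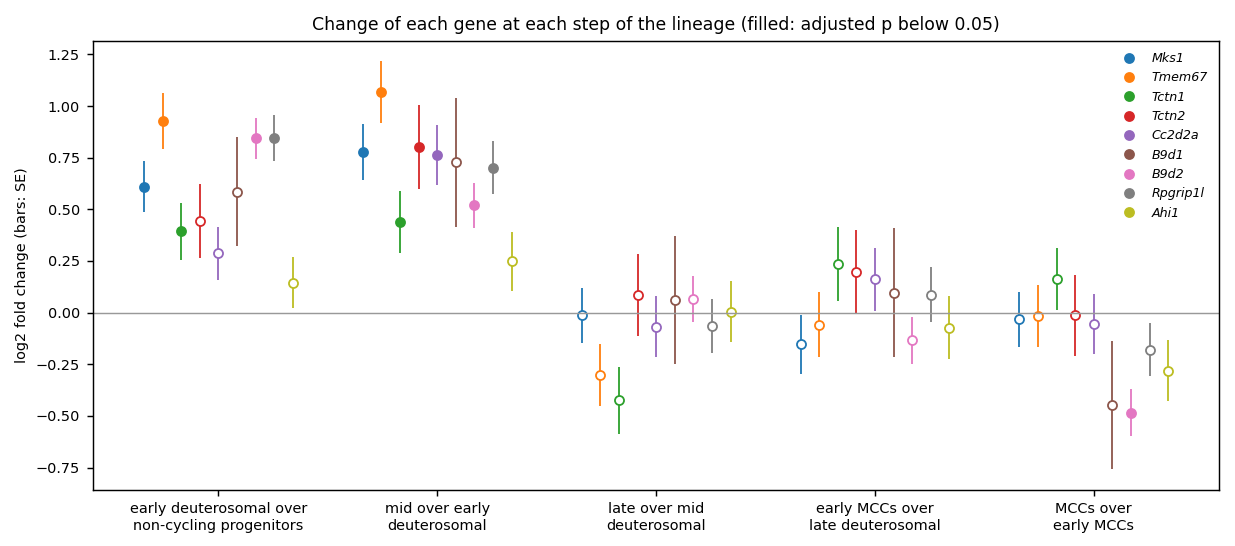
Log2 fold change of each transition zone gene at 5 successive steps of the lineage, later over earlier population, with SE bars; filled points have an adjusted p below 0.05. Filled points lie above 0 at the first and second step, none is filled at the next 2, and B9d2 alone is filled, below 0, at the last.

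The stage with the highest mean level was not the same for all members. Mean levels were highest in mid deuterosomal cells for Tmem67 (110.2 ± 15.0 CPM, SD, n = 2 libraries) and Tctn1 (15.9 ± 3.4), and in late deuterosomal cells for Mks1 (35.7 ± 0.2) and B9d2 (94.4 ± 7.3). They were highest in early MCCs for B9d1 (478 ± 5), Rpgrip1l (139 ± 35) and Cc2d2a (122 ± 5), and in MCCs for Tctn2 (150.4 ± 35.2), which had 150.3 ± 35.3 CPM in early MCCs. By raw totals the highest stage lay above the next one in both libraries for Mks1, B9d1 and B9d2. For Tmem67, Tctn1, Tctn2, Cc2d2a and Rpgrip1l the 2 highest stages overlapped. The margin for Mks1 was small. With the scaling used in the fit (TMM factors), its mid deuterosomal level lay above the late one in replicate 1 (log2 CPM 5.30 against 5.23). For B9d2, mid likewise lay above late deuterosomal cells in replicate 2 (6.54 against 6.48). Of the 8 genes other than Ahi1, 7 had their lowest mean among the 13 fitted populations in oligodendrocytes, and Rpgrip1l in OPCs (16.0 ± 11.0 CPM). The lowest population lay below the next one in both libraries only for Tctn1, B9d1 and B9d2. Tctn1 had just 1 UMI per library in oligodendrocytes. Fibroblasts, with 18 and 22 cells, were too few to be fitted; Mks1 had 0 UMIs there, which allows up to 11.4 CPM in replicate 1 and 8.92 CPM in replicate 2.

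The progenitor populations differed as well. All 9 members had a higher mean level in progenitors II than in progenitors I, and in a comparison chosen after these levels were seen 3 of 9 passed the test, with 4.45% of all genes called higher. Tmem67 had 32.8 and 42.1 CPM in progenitors II, against 18.5 and 25.7 CPM in progenitors I (log2 0.69 ± 0.16, adjusted p = 0.00788). Rpgrip1l had 53.3 and 58.6 CPM in progenitors II, against 33.8 and 37.6 CPM in progenitors I (0.57 ± 0.13, adjusted p = 0.00673). The third was Tctn1 (0.53 ± 0.14, adjusted p = 0.0191), and none of the 3 passed without the library term. Multiciliated cell markers moved with them, at 858 and 870.3 CPM in progenitors II, against 398 and 378 CPM in progenitors I; their part in the result was not tested.

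More of the 9 genes were detected per cell in the lineage than in progenitors. Each cell was thinned to 5000 UMIs, since deuterosomal cells were deeper (median 20650 and 22456 UMIs in late deuterosomal cells, 10490 and 13128 in progenitors I), and 607 shallower cells were left out. A mean of 3.43 and 3.73 of the 9 genes had a UMI in a mid deuterosomal cell of replicates 1 and 2, against 1.68 and 1.76 in a cell of progenitors I. At least 3 of the 9 were detected in 74.3% and 81.2% of mid deuterosomal cells, against 22.2% and 23.5% of progenitors I. Tmem67 had a UMI in 39.8% and 43.4% of mid deuterosomal cells, against 7.85% and 13.2% of progenitors I; in the cells as deposited these shares were 78.4% and 83.9%, against 18.5% and 31.0%. B9d1 had a UMI in 86.5% and 88.7% of mid deuterosomal cells, against 51.5% and 47.8% of progenitors I. In microglia, which build no motile cilia, B9d1 had a UMI in 19.9% and 7.69% of thinned cells and Tmem67 in 5.23% and 2.56%, at median depths of 13668 and 17034 UMIs. Every share given here for the lineage lay above that of microglia in the same library.

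**Figure D4:**
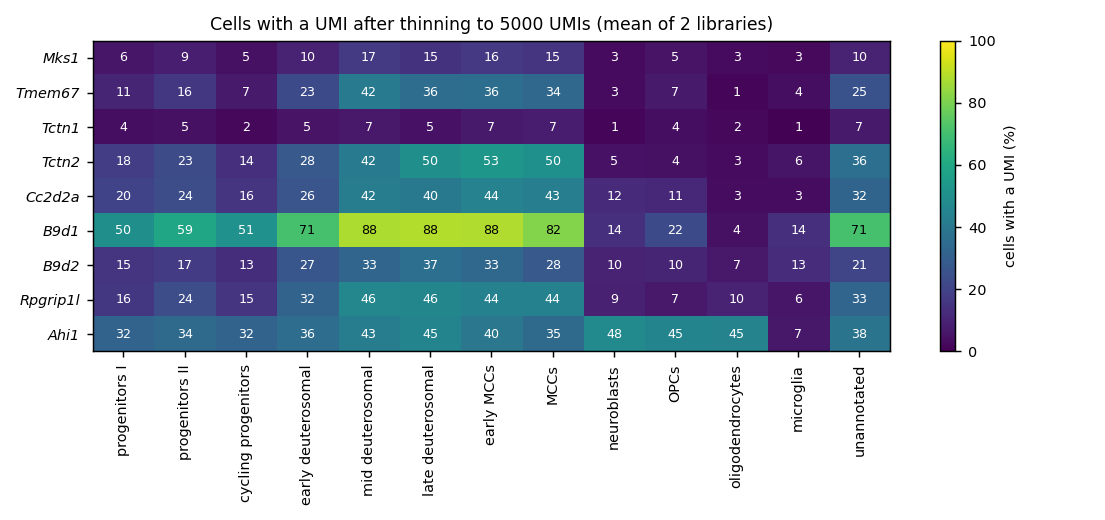
Percent of cells with at least 1 UMI of each transition zone gene after thinning every cell to 5000 UMIs, as the mean of both libraries, with the percent printed in each field. B9d1 is seen in most cells of the lineage, Tctn1 in few cells of any population, and Ahi1 at like shares in late deuterosomal cells, neuroblasts, OPCs and oligodendrocytes.

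The deposited cell cycle classes split some populations further, and levels within them are given as a description, with no test, since the classes were presumably set from the same counts. Within cycling progenitors, Cc2d2a had 53.4 and 48.7 CPM in cells classed S/G2, against 26.1 and 19.4 CPM in S and 26.4 and 22.0 CPM in G1. B9d2 had 44.5 and 33.2 CPM in S/G2, against 25.6 and 24.0 CPM in S and 21.1 and 19.9 CPM in G1. In G0 cells Cc2d2a had 43.0 and 62.2 CPM and B9d2 had 35.6 and 19.4 CPM. For both genes the S/G2 cells of each library lay above its S and G1 cells; against G0 this held in both libraries for B9d2, and in replicate 1 only for Cc2d2a. Mks1 had 11.1 and 9.10 CPM in S/G2, against 14.2 and 9.25 CPM in S and 12.7 and 8.37 CPM in G1. Within early deuterosomal cells, Rpgrip1l had 129 and 131 CPM in S/G2, against 93.3 and 100.5 CPM in S and 75.1 and 74.7 CPM in G0. The S/G2 values rest on 22 and 38 cells. Within late deuterosomal cells, Rpgrip1l had 99.6 and 80.5 CPM in G2/M, against 114 and 159 CPM in S/G2, and B9d1 had 516 and 591 CPM in G2/M, against 415 and 452 CPM in S/G2; the G2/M class held 52 and 21 cells.

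Across the 26 sums of population and library, the log2 levels of the 8 members other than Ahi1 followed one another, with Pearson's r between 0.844 (Mks1 and Tctn1) and 0.969 (Tctn2 and Rpgrip1l). Ahi1 correlated with the others at r between 0.120 (B9d2) and 0.491 (Cc2d2a). These values describe sums that share libraries and depth. Of 4519 other genes whose log2 CPM averaged 5 or more, the gene most like the mean of the 9 was Ift74, a subunit of the intraflagellar transport complex, at r = 0.996. It was followed by Oscp1 (0.988), Sirt3 (0.987), Ccdc30 (0.987), Ccdc173 (0.985), Cluap1 (0.983), Dnal1 (0.983), Gcc2 (0.982), 1110032A03Rik (0.982) and Rsph9 (0.981). Cluap1 is another intraflagellar transport protein, Dnal1 an axonemal dynein light chain and Rsph9 a radial spoke head protein.

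Other genes of the ciliary base moved in the same direction in the lineage against non-cycling progenitors, where 36% of all genes were called higher. Of 22 other transition zone genes, 21 were higher and 0 lower, with a median log2 fold change of 1.01. Fam92b, which acts with the basal body protein Cby1, had the largest change (log2 3.83 ± 0.12), followed by the MKS membrane protein Tmem107 (2.51 ± 0.23). Tmem107 had 1439.7 and 1276 CPM in mid deuterosomal cells, against 114 and 115 CPM in progenitors I and 186 and 191 CPM in progenitors II. The smallest changes past the test were those of Cep162 (0.42 ± 0.07) and Dzip1l (0.47 ± 0.08), and Fam92a did not pass (0.13 ± 0.09, adjusted p = 0.241). Of these 22 genes, 19 were higher at the step into early deuterosomal cells, against 21.8% of all genes, and 18 at the step into mid deuterosomal cells, against 28.2%, with 0 lower at either.

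All 6 genes of the distal appendages, which dock the basal body to the membrane, were higher in the lineage against non-cycling progenitors (median 1.06). In that comparison 36% of all genes were called higher and 34.9% lower. Cep164 changed by 1.86 ± 0.08, Cep83 by 1.78 ± 0.07, Fbf1 by 0.73 ± 0.08 and Ttbk2, the kinase that starts cilium assembly, by 0.32 ± 0.09; Ttbk2 overlaps Cdan1 on the same strand. Cep164 had 75.7 and 91.4 CPM in MCCs, against 173 and 197 CPM in mid deuterosomal cells, and all 6 genes were lower in this comparison, where 29.9% of all genes were called lower. The lists that follow are again set against non-cycling progenitors, with the same shares of all genes. Of 12 genes for traffic to the ciliary membrane and other Joubert syndrome genes, 10 were higher and 1 lower (median 0.83). The highest were 2700049A03Rik (1.54 ± 0.08) and Pibf1 (1.23 ± 0.08), which overlaps Dis3. Unc119b rose by 0.25 ± 0.08. The kinesin of the Hedgehog pathway, Kif7, which overlaps Ticrr, fell by 0.58 on the log2 scale. The 4 genes of the inversin compartment, a more distal part of primary cilia, had a median of −0.07, with Nek8 higher (0.25 ± 0.10, adjusted p = 0.0233) and Invs lower (−0.29 ± 0.10, adjusted p = 0.0151); Invs overlaps Tex10.

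Genes of the Hedgehog pathway, which signals through primary cilia in vertebrates, were split. Of the 10 genes of this list that passed the filter on low counts, 1 was higher and 5 were lower in the lineage (median −0.54), where 34.9% of all genes were called lower. Gas1, a co-receptor for Hedgehog ligands, had 48.9 and 62.2 CPM in mid deuterosomal cells and 129 and 174 CPM in MCCs, against 331 and 402 CPM in progenitors I (log2 −1.72 ± 0.18 for the lineage, adjusted p = 1.57e-06). Ptch1, the receptor and itself a target of the pathway, had 9.11 and 10.4 CPM in mid deuterosomal cells, against 41.6 and 55.3 CPM in progenitors I (−1.38 ± 0.10). Gli3, a transcription factor that acts largely as a repressor, was higher (0.53 ± 0.08). Against the other cell types, where 42.3% of all genes were called higher, 6 of these 10 genes were higher and 1 was lower.

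Of 8 RFX and forkhead factors, 5 were higher in the lineage and 2 lower, where 36% of all genes were called higher and 34.9% lower. Foxj1, which drives motile cilium genes, had 732 and 1152 CPM in early deuterosomal cells and 865 and 1276 CPM in mid deuterosomal cells, against 154 and 194 CPM in progenitors I (log2 1.67 ± 0.27 for the lineage, adjusted p = 9.41e-05). Foxn4 had 35.5 and 41.0 CPM in mid deuterosomal cells and 0 UMIs in progenitors II, so no fold is given. Among the RFX genes, Rfx2 rose by 1.01 ± 0.10 on the log2 scale, Rfx1 by 0.62 ± 0.10 and Rfx7 by 0.21 ± 0.06. Rfx1 overlaps C330011M18Rik on the other strand (4035 and 1322 UMIs, against 2660 and 997 for Rfx1), so its reads may be shared. Rfx3 did not pass (0.23 ± 0.12), Rfx4 fell by 0.90 and Rfx5, which overlaps B230398E01Rik, by 0.27. The lists were chosen with earlier results of these data known, so their counts are a description.

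**Figure D5:**
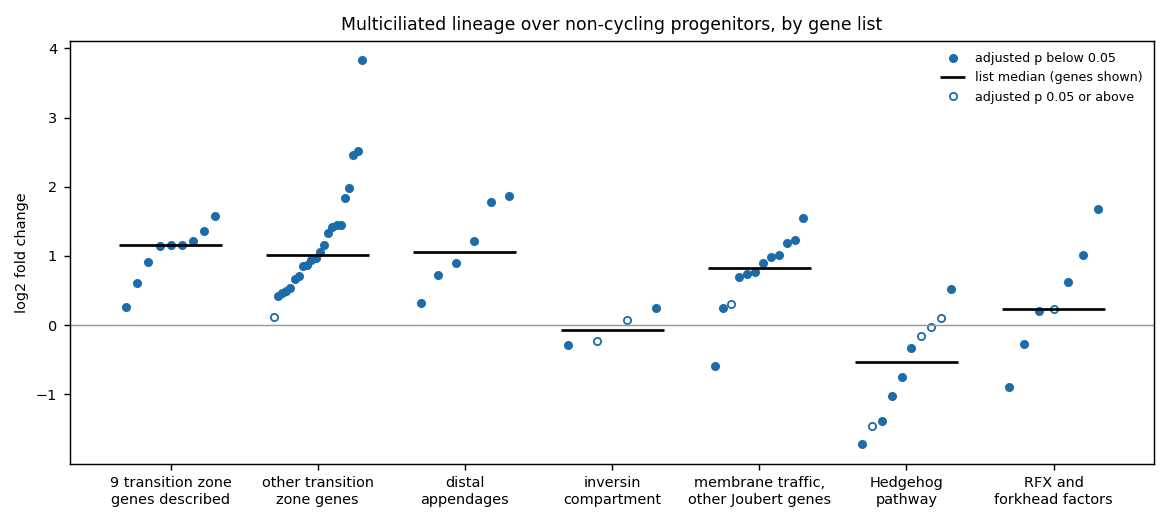
Log2 fold change of the multiciliated lineage over non-cycling progenitors for the 9 transition zone genes and 6 related lists, 1 point per gene, filled where the adjusted p is below 0.05, with a line at the median of the genes shown. Foxn4 is left out because it was near 0 in progenitors. The 9 members, the other transition zone genes and the distal appendage genes lie above 0, and most Hedgehog genes lie below it.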

How the data were processed

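Per the submitters' processing notes, the authors' deposited values are whole-number UMI counts made with Cell Ranger, in versions 3 and 5.0.1, against mm10. The deposited cell metadata gives library, population and cell cycle class. How names were assigned and doublets treated is not stated in the sources at hand. The table has no row names, and its rows were taken in the order of the deposited gene table. Members, lists and comparisons were chosen with earlier results of these data known, and 2 comparisons between single populations were added after the levels were seen. Named genes are all members, up to 2 highest and 2 lowest changes past the test per list, and the 10 genes most like the members. Fam92a, Rfx1, Rfx2, Rfx3, Rfx7 and Foxn4's levels were added to account for counts.

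Summing counts over the cells of each population in each library gave 26 sums for 13 populations that had 20 cells or more in both. They were fitted with edgeR 4.0.16 (R 4.3.3), using TMM factors (0.739 to 1.20), the default low count filter (15877 genes, all 9 members among them) and the robust quasi-likelihood test (12 residual df), with population and library as terms. P-values are two-sided and adjusted over all genes by Benjamini and Hochberg (threshold 0.05), and SE is the log2 fold change over the root of F. All populations shared 1 estimate of the spread. Library was a replicate block, as populations of a library share a culture; their deviations had a median correlation of 0.184 (lowest −0.00168). Levels are CPM by the raw total of each sum. Floors (3 counts) cover counting error only. The fit was tested on simulated counts. Alternatives were RLE factors, DESeq2 1.42.0, no filter, no library term, thinned cells, 2 sides only, no unannotated cells, either library alone and, added later, no microglia. Promoters are from RefSeq (GRCm38.p6).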

Additional observations from a re-analysis of the deposited data

How the results depend on the processing

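Of the counts of members past the test, 58 of 71 alternatives stayed within 1.5 times the main count, and the 3 comparisons of the lineage kept a count of 8 or 9 of 9 under all of them. The share of all genes called was counted only for the main fit and for the fit without microglia. The counts below have no such share beside them, so they are a description and not a result about the members. With only the 2 sides in the fit, the count was 8 for early deuterosomal cells against non-cycling progenitors, 1 for late against mid deuterosomal cells (Tmem67), 1 for early MCCs against late deuterosomal cells (Tctn2), 3 for MCCs against early MCCs, 7 for progenitors II against I and 5 for MCCs against mid deuterosomal cells (Tctn2 higher, the others lower). In thinned cells it was 1 for early MCCs against late deuterosomal cells (Cc2d2a) and 5 for MCCs against mid deuterosomal cells (again with Tctn2 higher). With no replicate block it was 0 for MCCs against early MCCs, 0 for progenitors II against I and 1 for MCCs against mid deuterosomal cells; the last was also 1 with DESeq2 and 1 without unannotated cells. Beyond these, dropping the block ended the calls of Ahi1 against both kinds of progenitor, of Tctn1 at the first step and of Tctn1 and Tctn2 at the second, and no other call.

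Several members changed sign, in log2 fold change. Ahi1 gave −0.128 against the other cell types without microglia. In late against mid deuterosomal cells Mks1 gave 0.0896 with RLE, 0.0967 with DESeq2, 0.0151 with no replicate block, 0.0331 with 2 sides and 0.0480 without unannotated cells; Cc2d2a gave 0.0361 with RLE and 0.0506 with DESeq2, Rpgrip1l 0.0389 and 0.0429, and Ahi1 −0.0109 with no filter. In early MCCs against late deuterosomal cells Tmem67 gave 0.0242 with RLE, 0.0147 with DESeq2 and 0.103 thinned, Ahi1 0.00846 with RLE and Rpgrip1l −0.0901 thinned. In MCCs against early MCCs Tmem67 gave 0.00405 with no filter and 0.000523 without unannotated cells, Tctn2 0.00736 with no filter, 0.00223 thinned and 0.00418 without unannotated cells, and thinned cells gave 0.0595 for Mks1 and 0.0103 for Rpgrip1l. In MCCs against mid deuterosomal cells Tctn1 gave 0.15 with RLE, 0.136 with DESeq2, 0.29 thinned and 0.0883 without unannotated cells, and Rpgrip1l 0.0193 with RLE and 0.0185 with DESeq2. With either library alone, Ahi1 ranged from −0.0277 to 0.321 at the first step. In late against mid deuterosomal cells Mks1 ranged from −0.0626 to 0.103, Cc2d2a from −0.137 to 0.0304, B9d2 from −0.0587 to 0.159 and Ahi1 from −0.0963 to 0.14. In MCCs against early MCCs the range was −0.118 to 0.0578 for Tmem67, −0.163 to 0.302 for Tctn1, −0.0275 to 0.00259 for Tctn2 and −0.124 to 0.0301 for Cc2d2a. In MCCs against mid deuterosomal cells it was −0.21 to 0.0352 for Tctn1 and −0.0494 to 0.151 for Cc2d2a. The cause was not tested for any of these. Depth limits Tctn1 most, with 1 to 4 UMIs per sum in neuroblasts, OPCs and oligodendrocytes.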
